A study of Mus musculus with 8 samples.

Results

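The genes described here are 10 mouse genes of the ATF4 and CHOP stress response: Atf4, Atf5, Atf3, Ddit3, Trib3, Ddit4, Sesn2, Chac1, Slc7a11 and Inhbe. They were taken by symbol from a table of 47643 genes counted in 8 RNA libraries, and all 10 were among the 16388 genes that passed a filter on low counts. The list was drawn up with results of these libraries known, and it rests on the comparisons of each knockout with wild type. Those comparisons are therefore given as a description, without p-values, and nothing is supported with them.

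Polyadenylated RNA was sequenced from mouse embryonic stem cells of the E14 line, on the 129/Ola background. All groups shared the same medium, 2i, which is N2B27 with LIF and the kinase inhibitors CHIR99021 (against GSK3) and PD0325901 (against MEK), for 2 weeks or more. The 4 groups were wild type (WT) and cells labelled as knockouts of Dgcr8 (Dgcr8_KO), of Drosha (Drosha_KO) and of Ago1 with Ago2 (Ago1_2_KO), each with 2 libraries. DROSHA with its partner DGCR8 makes the nuclear cut that frees miRNA hairpins, and mature miRNAs act on target RNAs while bound to Argonaute proteins. Separate cultures or clones are not named for the 2 libraries of a group, and the spread that p-values rest on may therefore be technical. Levels are given as CPM, the depth-scaled unit in which a gene's counts are divided by the scaled total of its library. In bulk samples, fewer cells of a type and less RNA per cell cannot be told apart.

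In the integrated stress response, kinases that sense misfolded protein in the endoplasmic reticulum, lack of amino acids, double-stranded RNA or lack of heme phosphorylate the initiation factor eIF2. General translation then falls, while the mRNA of the transcription factor ATF4 is translated more, because of upstream reading frames in its leader. ATF4 switches on genes for amino acid supply and redox balance, and also Ddit3, which encodes the transcription factor CHOP. Because ATF4 itself is controlled largely at translation, the level of Atf4 mRNA is an incomplete guide to the amount of the protein.

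ATF4 binds DNA mostly as a partner of C/EBP proteins, at the C/EBP-ATF response element. Its core, TGATGNAA, was sought on both strands of promoter windows from 250 bases before to 50 bases after each start site (RefSeq, GRCm38.p6). All 10 genes had a window, and 5 held the core (Chac1, Slc7a11, Inhbe, Trib3 and Atf3), as did 14 of 35 other known ATF4 targets with a window. Of all 32851 windows, 3.97% held it. In the narrower window from 150 bases before the start, 3 of the 10 genes, 13 of the 35 targets and 2.75% of all windows held it. A gene was counted if any of its windows held the core, so counts of genes and shares of windows differ in unit. The stretches around these matches are shown for the 5 genes with a match. Ddit4 and Ddit3, with every knockout library below both of WT, held none. A link between matches and levels was not tested. Capitals mark the core, read here on the strand of the gene, so that TTGCATCA and TTACATCA are cores on the opposite strand.
Chac1, chr2:119351024-119351081, + strand: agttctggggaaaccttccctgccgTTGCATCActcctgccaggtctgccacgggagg
Slc7a11, chr3:50443628-50443704, - strand: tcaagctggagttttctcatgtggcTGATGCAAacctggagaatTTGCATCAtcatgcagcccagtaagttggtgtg
Inhbe, chr10:127351997-127352054, - strand: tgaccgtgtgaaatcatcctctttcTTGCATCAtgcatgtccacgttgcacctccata
Trib3, chr2:152344029-152344056, - strand: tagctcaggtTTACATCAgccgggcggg
Atf3, chr1:191183411-191183468, - strand: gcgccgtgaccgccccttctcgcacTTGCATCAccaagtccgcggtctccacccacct

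Counted from the RefSeq start, the match of Chac1 began at position -193, those of Slc7a11 at -66 and -47, that of Inhbe at -181, that of Atf3 at -110 and that of Trib3 at 15. Slc7a11 was the only one of the 10 with 2 matches, one on each strand. The windows of Inhbe and Atf3 follow RefSeq start sites that lie inside the longest annotated span of the gene. The match of Trib3 (chr2:152344039-152344046) lies before the annotated span of its gene, whose highest coordinate, on the - strand, is 152344032. Neither the cAMP response element TGACGTCA, held by 1.79% of all windows, nor the ER stress element (ERSE), held by 0.119%, was found in a window of the 10. These matches describe letters in a window and are no evidence of binding.

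The depth was between 13229771 and 26333907 counts per library. Drosha mRNA was lower in Drosha_KO (51.2 and 82.4 CPM, with 278 and 266 in WT). That of Dgcr8 was higher, not lower, in the libraries labelled Dgcr8_KO (392 and 370 against 78.1 and 70.5), and Ago1 mRNA was not lower in those labelled Ago1_2_KO (160 and 87.8 against 106 and 63.3). Ago2 had 216 and 195 CPM there and 464 and 227 in WT. Dgcr8 was called higher than WT in Drosha_KO too, as were Ago1 and Ago2. The labels do not name the deleted parts, so mRNA levels do not check the knockouts of Dgcr8 and Ago1. The 8 markers of embryonic stem cells had counts in every group, with summed levels between 4800 and 5773 CPM. The 6 markers of trophectoderm summed to 30.8 and 22.5 CPM in WT and to 7.49 to 16.7 CPM in the knockouts, with Elf5 and Hand1 without counts in Dgcr8_KO, Elf5 in Drosha_KO and Cdx2 in Ago1_2_KO. The 7 fibroblast markers summed to 2.43 and 2.27 CPM in WT, 1.21 and 1.02 in Dgcr8_KO, 5.22 and 4.03 in Drosha_KO, and 5.77 and 8.9 in Ago1_2_KO. For the 6 primitive endoderm markers the sums were 3.72 and 4.16 CPM in WT, 5.01 and 5.08 in Dgcr8_KO, 6.69 and 9.96 in Drosha_KO, and 7.8 and 8.46 in Ago1_2_KO. The part of these cells in the results was not tested.

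Of the 10 genes, 7 had all 6 knockout libraries below both WT libraries: Ddit4, Trib3, Ddit3, Atf3, Chac1, Slc7a11 and Inhbe. This pattern was shown by 10.7% of all genes tested. For Atf4 and Atf5 some knockout libraries lay inside the range of WT, and those of Sesn2 lay on both sides of the 2 WT libraries, which were nearly equal. Against WT, 7 of 10 were called lower in Dgcr8_KO (4.48% of all genes tested), 7 in Drosha_KO (4.83%) and 7 in Ago1_2_KO (7.38%). None of the 10 was called higher in a knockout, where 2.45%, 6.54% and 10.2% of all genes were, respectively. Ddit4, Chac1, Slc7a11, Inhbe, Trib3 and Ddit3 were called lower in all 3, which 0.702% of all genes were. Calls of Slc7a11, Inhbe and Ddit3 were lost in some of the alternative settings, and those of Ddit4, Chac1 and Trib3 in none. A call is an adjusted p under 0.05 in edgeR's quasi-likelihood test, and nothing is read from these counts, since the list was chosen with these contrasts known and the 3 contrasts share the WT libraries. The median log2 change of the 10 was -2.75 in Dgcr8_KO, -2.69 in Drosha_KO and -2.25 in Ago1_2_KO, with medians over all genes of -0.03, -0.02 and -0.02. The count in Dgcr8_KO was 3 without either Dgcr8_KO library, when 15 or 24 of all genes were called lower. In Ago1_2_KO it was 3 without either Ago1_2_KO library. Fold changes in Dgcr8_KO against WT also moved with the GC content of the transcript (Spearman correlation -0.444 across 16315 genes, which are not independent), while those in Drosha_KO (0.00555) and Ago1_2_KO (-0.0442) did so little.

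**Figure D1:**
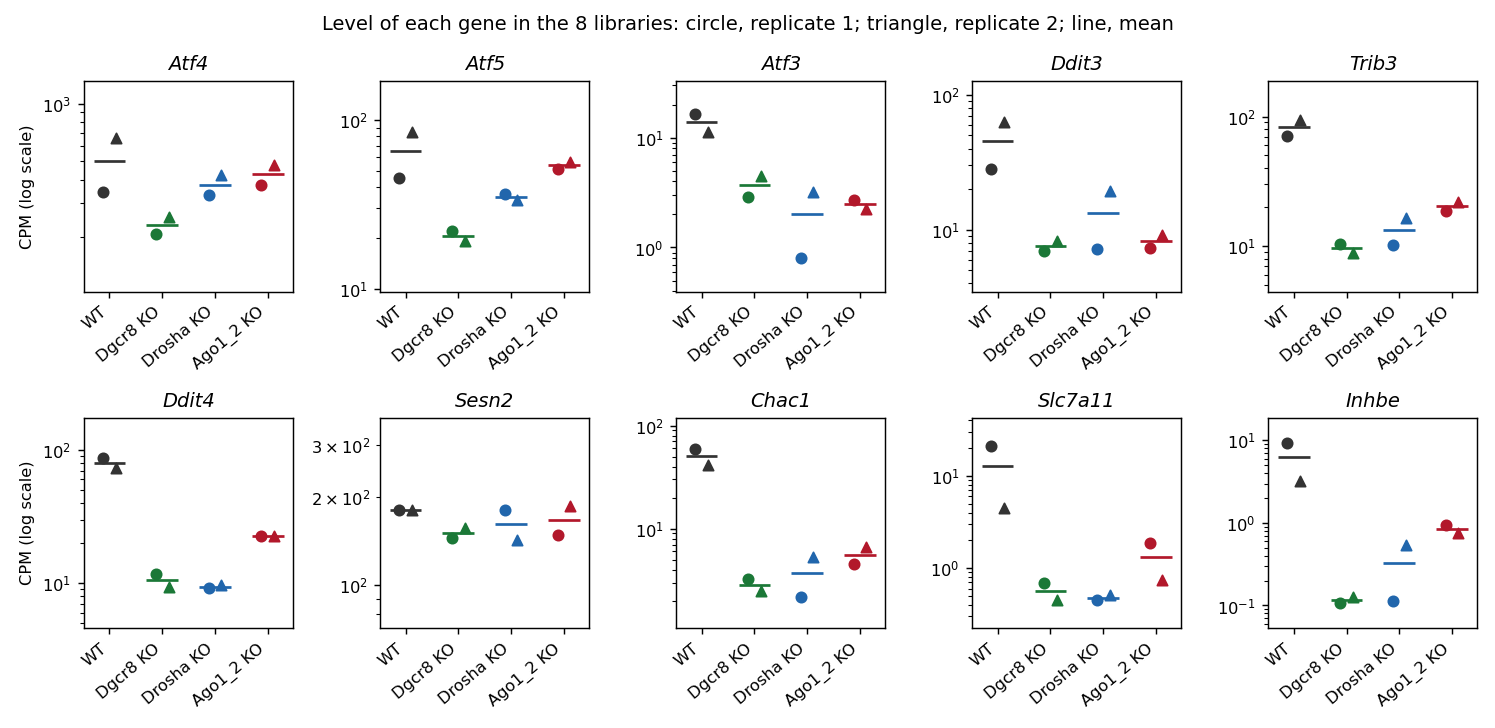
Level of the 10 genes in each library, in CPM on log axes that differ between panels; circles are replicate 1, triangles replicate 2 and lines the mean of the 2 libraries of a genotype. Ddit4, Trib3, Ddit3, Atf3, Chac1, Slc7a11 and Inhbe have all 6 knockout libraries below both WT libraries, while Sesn2 lies between 143 and 186 CPM throughout.

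Per kilobase of exon, so that genes can be compared, Atf4 had the highest level in WT, at 212 CPM per kb. It was followed by Sesn2 (51.9), Ddit4 (45.6), Trib3 (38.8), Atf5 (32.6), Chac1 (30.8) and Ddit3 (26.7). Atf3 (6.44), Inhbe (1.19) and Slc7a11 (0.924) were the 3 lowest. In Dgcr8_KO, Atf4 (97.9 CPM per kb) and Sesn2 (43.5) were again the 2 highest of the 10, and the rest were at 10.3 CPM per kb or less. Inhbe (0.0219) and Slc7a11 (0.0406) were the lowest there.

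Atf4 (ENSMUSG00000042406.7, GRCm38 chr15:80255184-80257541) encodes the transcription factor at the centre of the response. Its level was 344 and 658 CPM in WT, 207 and 254 in Dgcr8_KO, 331 and 423 in Drosha_KO, and 375 and 480 in Ago1_2_KO. WT 2 was the highest library and WT 1 lay among the Drosha_KO and Ago1_2_KO libraries, and only Dgcr8_KO had both of its libraries below both of WT, with Drosha_KO 1 also below them. The log2 change against WT was -1.12 ± 0.31 (SE) in Dgcr8_KO, -0.41 ± 0.30 in Drosha_KO and -0.23 ± 0.30 in Ago1_2_KO, and none was called. That in Dgcr8_KO was called with DESeq2, with the replicate block, without the low-count filter and without WT 1, and that in Drosha_KO without WT 1. With the GC offset the change in Dgcr8_KO was -0.74. Against WT 1 alone these became -0.57, 0.15 and 0.34, and against WT 2 alone -1.49, -0.78 and -0.59. The sign in Drosha_KO and Ago1_2_KO thus depends on which WT library is used.

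Atf5 (ENSMUSG00000038539.15, chr7:44812256-44816658), a close relative of ATF4 that is also controlled at translation, stood at 45.1 and 85.0 CPM in WT. The other libraries had 21.9 and 19.3 CPM in Dgcr8_KO, 36.7 and 33.4 in Drosha_KO, and 51.5 and 56.3 in Ago1_2_KO. The order was WT, Ago1_2_KO, Drosha_KO and Dgcr8_KO, with overlap only between the first pair. Its log2 change was -1.66 ± 0.29 in Dgcr8_KO, -0.89 ± 0.28 in Drosha_KO and -0.27 ± 0.28 in Ago1_2_KO, and only the first was called. With the GC offset the first was -0.96, still called, but its call was lost without either Dgcr8_KO library. The change in Drosha_KO was called with that offset, with DESeq2, without the low-count filter and without WT 1, and that in Ago1_2_KO without WT 1. Against WT 1 alone the change in Ago1_2_KO was 0.28, of the opposite sign. Atf5 shares 82 bases of exon, 4.11% of its exon length, with Il4i1 and Nup62 on the opposite strand. No source used here gives whether counting used strand.

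Atf3 (ENSMUSG00000026628.13, chr1:191170296-191218039) encodes a transcription factor induced by ATF4 and by many other stresses. It had 16.4 and 11.3 CPM in WT, 2.9 and 4.45 in Dgcr8_KO, 0.794 and 3.22 in Drosha_KO, and 2.71 and 2.24 in Ago1_2_KO. All knockout libraries were below both of WT, and the 2 Drosha_KO libraries differed 4.05-fold, with 14 and 83 counts. Changes on the log2 scale were -1.92 ± 0.54 in Dgcr8_KO, which was not called, and -2.75 ± 0.56 in Drosha_KO and -2.47 ± 0.56 in Ago1_2_KO, which were. The change in Dgcr8_KO was called with limma-voom, DESeq2, the replicate block or only the groups compared, without the low-count filter, and without either Drosha_KO library. The call in Ago1_2_KO was lost without either of its libraries.

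Ddit3 (ENSMUSG00000025408.15, chr10:127290774-127296288) encodes CHOP, a C/EBP-like factor linked to cell death under lasting stress. Its levels were 28.2 and 63.3 CPM in WT, 6.97 and 8.26 in Dgcr8_KO, 7.21 and 19.3 in Drosha_KO, and 7.32 and 9.2 in Ago1_2_KO. The highest knockout library, Drosha_KO 2, was still below WT 1. The log2 change was -2.59 ± 0.50, -1.78 ± 0.47 and -2.47 ± 0.49 in the order of the groups. It was larger against WT 2 alone (-3.04, -2.22 and -2.91) than against WT 1 alone (-1.88, -1.06 and -1.75). The call in Drosha_KO was lost with only the groups compared in the fit. It was also lost without WT 2, without Drosha_KO 1 and without any Dgcr8_KO or Ago1_2_KO library. The calls in Dgcr8_KO and in Ago1_2_KO were each lost without WT 2 and without either library of that knockout. Ddit3 shares 68 bases of exon with Mars, which encodes methionyl-tRNA synthetase on the opposite strand and is itself an ATF4 target, called lower in all 3 knockouts (-0.83, -0.82 and -0.85).

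Trib3 (ENSMUSG00000032715.9, chr2:152337422-152344032) encodes a pseudokinase that is induced by ATF4 and CHOP and in turn restrains ATF4. WT libraries had 70.9 and 94.0 CPM. Dgcr8_KO had 10.4 and 8.89 CPM, Drosha_KO 10.1 and 16.4, and Ago1_2_KO 18.7 and 22. Against WT, Trib3 changed by log2 -3.09 ± 0.29, -2.63 ± 0.28 and -2.02 ± 0.28, and its means were 11.7%, 16% and 24.7% of WT. The values with WT 1 alone and with WT 2 alone differed by 0.41 at most.

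**Figure D2:**
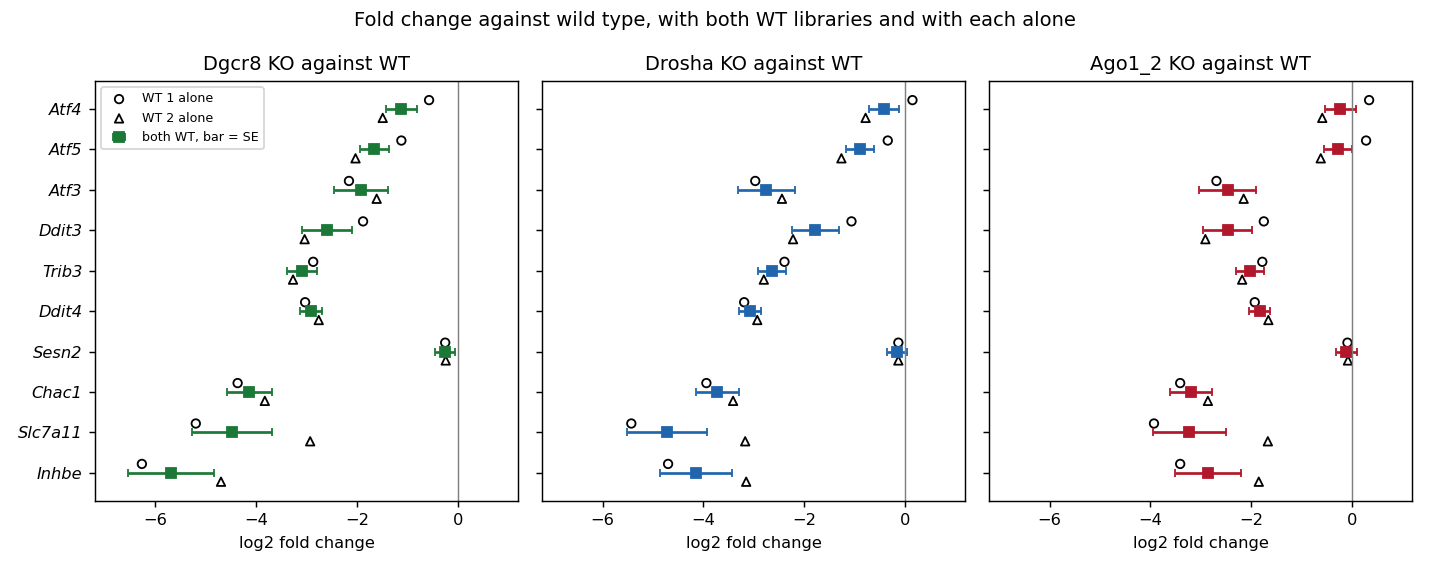
Log2 fold change of each gene against WT in the 3 knockouts, in units of log2; squares use both WT libraries with the SE as bar, open circles use WT 1 alone and open triangles WT 2 alone. The symbols of Slc7a11 lie 2.26 apart in Dgcr8_KO and those of Sesn2 0.01 apart, and the Atf4 circles are on the positive side in Drosha_KO and Ago1_2_KO.

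Ddit4 and Sesn2 both encode proteins that hold back the growth kinase complex mTORC1, and they behaved differently here. Ddit4 (REDD1, ENSMUSG00000020108.3, chr10:59949669-59951834) had 87.1 and 72.9 CPM in WT, 11.8 and 9.4 in Dgcr8_KO, 9.19 and 9.65 in Drosha_KO, and 22.5 in both Ago1_2_KO libraries. WT, Ago1_2_KO and the other 2 knockouts formed 3 separate levels, and Dgcr8_KO and Drosha_KO overlapped. The log2 change was -2.91 ± 0.22, -3.08 ± 0.22 and -1.83 ± 0.21, among the smallest SEs of the 10 genes. Sesn2 (ENSMUSG00000028893.8, chr4:132492032-132510501) had 180 CPM in both WT libraries, 145 and 157 in Dgcr8_KO, 181 and 143 in Drosha_KO, and 148 and 186 in Ago1_2_KO. Its log2 changes of -0.25, -0.16 and -0.11 were not called. With an offset for transcript GC content the first of these was 0.25, of the opposite sign.

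Chac1 (ENSMUSG00000027313.3, chr2:119351229-119354381) encodes an enzyme that degrades glutathione and is a target of ATF4. It had 59.5 and 41.3 CPM in WT, 3.22 and 2.48 in Dgcr8_KO, 2.16 and 5.35 in Drosha_KO, and 4.58 and 6.58 in Ago1_2_KO. These were log2 changes of -4.14 ± 0.45, -3.72 ± 0.43 and -3.19 ± 0.42, which is 5.65%, 7.45% and 11.1% of the WT mean. The 3 knockouts could not be ordered, because Drosha_KO spanned Dgcr8_KO and reached into the range of Ago1_2_KO.

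Slc7a11 (xCT, ENSMUSG00000027737.10, chr3:49892526-50443614) encodes the antiporter that takes up cystine, the source of cysteine for glutathione, in exchange for glutamate. It had 21.3 CPM in WT 1 and 4.45 in WT 2, a 4.78-fold difference between libraries of the same genotype. The knockouts had 0.686 and 0.445 CPM in Dgcr8_KO, 0.454 and 0.504 in Drosha_KO, and 1.87 and 0.748 in Ago1_2_KO, all below the lower WT library. The log2 change was -4.48 ± 0.79, -4.72 ± 0.79 and -3.23 ± 0.72 with both WT libraries. Against WT 2 alone it was -2.93, -3.17 and -1.67, and against WT 1 alone -5.20, -5.43 and -3.93. The fall thus had the same sign with either library, with a size that rests on the choice of library.

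Inhbe (ENSMUSG00000047492.4, chr10:127348857-127354411) encodes a secreted subunit of the activin family. It had 9.42 and 3.19 CPM in WT, from 167 and 66 counts. Dgcr8_KO held 2 counts in each library (0.106 and 0.127 CPM), Drosha_KO 2 and 14 (0.113 and 0.543) and Ago1_2_KO 24 and 10 (0.955 and 0.748). The log2 change was -5.69 ± 0.85, -4.15 ± 0.72 and -2.86 ± 0.66, and with WT 2 alone -4.70, -3.15 and -1.85. These few counts limit how well the size of the fall in Dgcr8_KO and Drosha_KO is known.

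The 2 WT libraries differed for these genes, and not all in the same direction. WT 1 was the higher for Slc7a11 (4.78-fold), Inhbe (2.95-fold), Atf3 (1.45-fold), Chac1 (1.44-fold) and Ddit4 (1.2-fold). WT 2 was the higher for Ddit3 (2.25-fold), Atf4 (1.91-fold), Atf5 (1.88-fold) and Trib3 (1.33-fold), and Sesn2 was nearly equal. In WT, 3 of the 10 differed over 2-fold between the libraries, where 14.8% of all genes tested did. In Drosha_KO 4 of the 10 did so (13.8% of all genes): Chac1, Inhbe, Ddit3 and Atf3, each higher in Drosha_KO 2. In Ago1_2_KO it was 1 of the 10 (4.34%), Slc7a11, and in Dgcr8_KO 0 of the 10 (3.54%). The median size of the log2 ratio between libraries was 0.72 over the 10 genes in WT and 0.45 over all genes, 0.27 and 0.18 in Dgcr8_KO, 0.52 and 0.37 in Drosha_KO, and 0.32 and 0.21 in Ago1_2_KO.

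**Figure D3:**
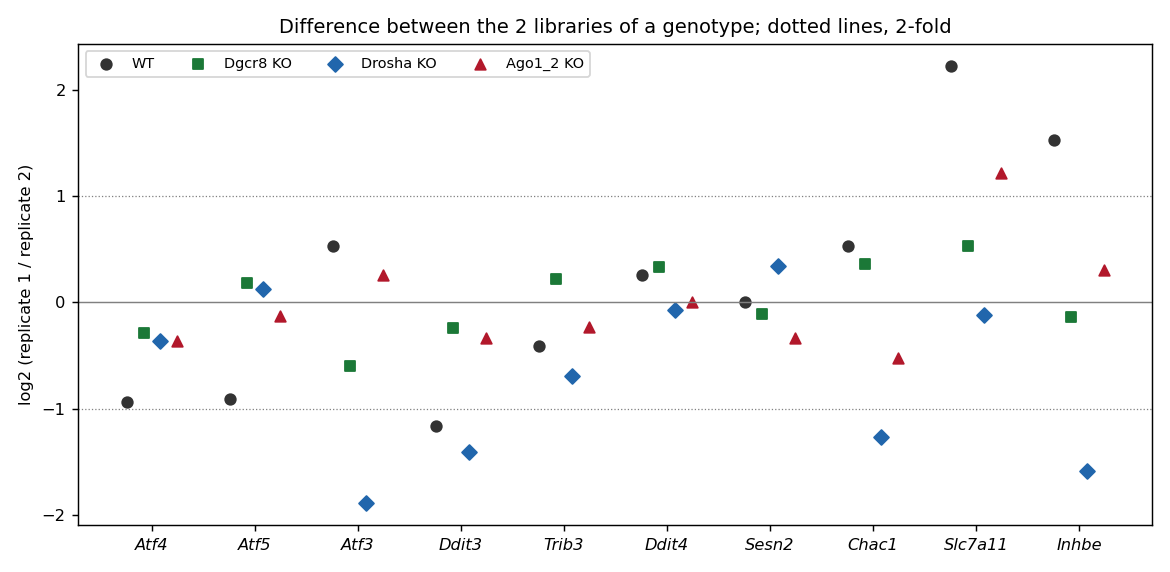
Log2 ratio of replicate 1 to replicate 2 for the 10 genes within each genotype, on a log2 axis, with dotted lines at a 2-fold difference. In WT (dark circles) Atf4, Atf5, Ddit3 and Trib3 are below 0 and Atf3, Ddit4, Chac1, Slc7a11 and Inhbe above it; in Drosha_KO (blue diamonds) Atf3, Ddit3, Chac1 and Inhbe are beyond the lower line.

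Comparisons among the knockouts are other contrasts than those the list was chosen with, and were tested with edgeR's quasi-likelihood test over all genes. They are not free of that choice, since the knockout libraries were part of it, and the WT libraries enter the shared estimate of the spread. Without WT 1 or without WT 2, the calls among the 10 went from 0 to 2 between Drosha_KO and Dgcr8_KO and from 3 to 5 between Ago1_2_KO and Dgcr8_KO. Between Drosha_KO and Dgcr8_KO none of the 10 was called, where 9.67% of all genes were called higher and 5.74% lower in Drosha_KO. At an unadjusted p under 0.05 there were 2, Atf4 (log2 difference 0.71 ± 0.31, edgeR adjusted p = 0.143) and Atf5 (0.76 ± 0.28, adjusted p = 0.0942), and DESeq2 called 0. Both had their Drosha_KO libraries above both Dgcr8_KO libraries, a pattern whose share over all genes was not counted. Fold changes between these genotypes moved with the GC content of the transcript (Spearman correlation 0.425 across 16315 genes, which are not independent). Atf4 has 55.5% GC and Atf5 61.7%, beside a median of 49.7% over all genes. The widest intervals were those of Inhbe (1.55, 95% interval -0.68 to 3.78) and Slc7a11 (-0.24, -2.18 to 1.70), and the narrowest those of Sesn2 (0.10, -0.34 to 0.54) and Ddit4 (-0.17, -0.65 to 0.31). For Slc7a11 a severalfold difference in either direction, and for Inhbe a severalfold difference upward, lies within the interval.

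Ago1_2_KO had higher levels than Dgcr8_KO for 3 of the 10 genes, beside 11.6% of all genes called higher and 5.54% called lower. Ddit4 was 2.12-fold higher (log2 1.08 ± 0.21, edgeR adjusted p = 0.00936), Trib3 2.10-fold (1.07 ± 0.28, adjusted p = 0.0276) and Atf5 2.61-fold (1.39 ± 0.28, adjusted p = 0.0108), with both Ago1_2_KO libraries above both Dgcr8_KO libraries for each. Also higher in both libraries, but not called, were Inhbe (2.83, 95% interval 0.77 to 4.89), Atf4 (0.89, 0.20 to 1.57), Chac1 (0.95) and Slc7a11 (1.24). The share of all genes with libraries separated in this way was not counted for pairs of knockouts, so nothing is read from the separation. Atf3 was the 1 gene of the 10 that was lower in Ago1_2_KO, with an interval on both sides of 0 (-0.56, -1.79 to 0.68). The median log2 difference was 1.01 over the 10 and -0.03 over all genes.

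The 3 calls did not hold in every setting. Fold changes between these genotypes moved with the GC content of the transcript (Spearman rho 0.369 across 16315 genes, which are not independent), and the 10 genes had a median GC content of 56.5% against 49.7% over all genes. With an offset for GC content the differences were 0.62 for Ddit4, 0.58 for Trib3 and 0.71 for Atf5, with edgeR adjusted p of 0.122, 0.111 and 0.0642. No call was left without Dgcr8_KO 1, Dgcr8_KO 2 or Ago1_2_KO 2, and only that of Atf5 without Ago1_2_KO 1 (adjusted p = 0.047). Over these 4 left-out libraries the differences were 0.93 to 1.26 for Ddit4, 0.96 to 1.19 for Trib3 and 1.30 to 1.48 for Atf5. limma-voom did not call Trib3 (adjusted p = 0.0504).

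Between Ago1_2_KO and Drosha_KO few genes were called, 0.409% higher and 0.323% lower in Ago1_2_KO, and Ddit4 was among those called. It was 2.39-fold higher in Ago1_2_KO (log2 1.26 ± 0.21, edgeR adjusted p = 0.0347), at 22.5 CPM in both libraries against 9.19 and 9.65. The size of the difference was 1.22 to 1.31 in all settings tried. It was not called with only these 2 groups in the fit (adjusted p = 0.113) nor without any 1 of the 6 knockout libraries (adjusted p 0.0822 to 0.267). Inhbe, Slc7a11, Trib3 and Atf5 also had both Ago1_2_KO libraries above both of Drosha_KO, without being called. Here too the share of all genes with this pattern was not counted. Atf3, Ddit3, Chac1, Atf4 and Sesn2 overlapped between the 2 genotypes. The median log2 difference was 0.57 over the 10 genes.

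**Figure D4:**
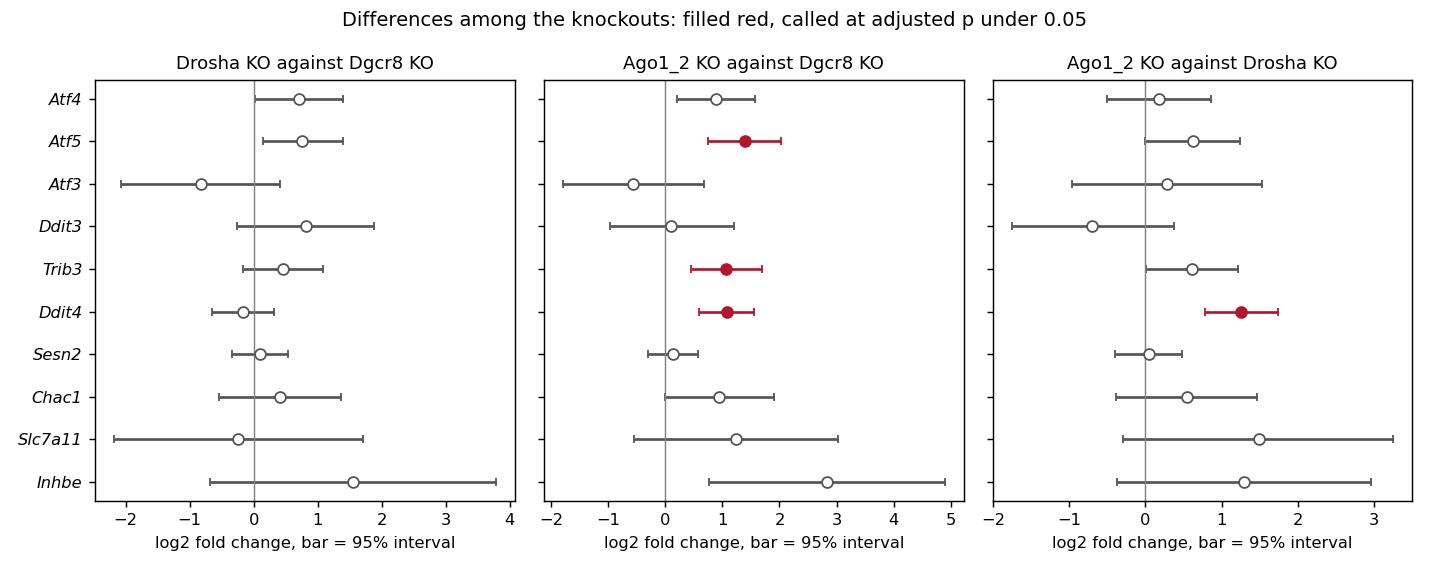
Log2 fold change of the 10 genes between pairs of knockouts, with 95% intervals as bars; filled red points were called at an adjusted p under 0.05. Ddit4 is the only gene called in 2 of the panels, at 1.08 against Dgcr8_KO and 1.26 against Drosha_KO, and none is called between Drosha_KO and Dgcr8_KO.

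Further ATF4 targets, from a list of 45 genes written with the fall of the stress genes known, were set beside the 10. Of 44 tested, 30 were called lower than WT in each knockout and 0 higher, beside the shares of all genes given above. Their median log2 change was -1.10 in Dgcr8_KO, -1.07 in Drosha_KO and -1.04 in Ago1_2_KO, smaller than the medians of the 10. Of the 44, 24 were called lower in all 3 knockouts, 7 in 2, 4 in 1 and 9 in none. These counts fell to 1 and 2 in Dgcr8_KO without Dgcr8_KO 1 and 2, to 19 there without either Ago1_2_KO library, to 15 in Drosha_KO without Drosha_KO 1, and to 8 in Ago1_2_KO without either of its libraries. With only the groups compared in the fit, the count in Drosha_KO was 12.

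Genes of amino acid synthesis and one-carbon metabolism were called lower in 10, 11 and 10 of 13. Phgdh, which opens serine synthesis, had 232 and 261 CPM in WT and 36.7 to 60.1 CPM in the knockouts (log2 -2.09 ± 0.25, -2.40 ± 0.25 and -2.22 ± 0.25). Amino acid transporters were called lower in 5 of 8 in each knockout, among them Slc6a9, a glycine transporter (-1.99, -1.99 and -1.2), and Slc3a2, the heavy chain that pairs with the Slc7a11 protein (-1.25, -1.07 and -1.0). Slc38a2, a neutral amino acid transporter, was not called (-0.08, 0.59 and 0.62). Of genes for tRNA charging and export 7, 9 and 10 of 13 were called lower, with a median of -0.84, -0.91 and -0.96. Of the remaining regulators and secreted factors 8, 5 and 5 of 10 were, among them Nupr1, a small stress-induced chromatin protein with 218 and 206 CPM in WT and 17.0 to 72.1 in the knockouts. Cebpg, which encodes a C/EBP partner of ATF4, was not called in any (-0.25, -0.47 and -0.42). Nor was Ppp1r15a, whose protein GADD34 reverses the phosphorylation of eIF2 (-0.86, -0.39 and -0.26).

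Among the knockouts, 2 of these 44 genes were called higher and 2 lower in Drosha_KO against Dgcr8_KO, 2 and 2 in Ago1_2_KO against Dgcr8_KO, and 0 in Ago1_2_KO against Drosha_KO (0 by limma-voom and 1 by DESeq2). The 4.55% called in each direction in the first pair of comparisons lay below the shares of all genes, 9.67% higher and 5.74% lower, and 11.6% and 5.54%. Gpt2, an alanine aminotransferase, was higher in Ago1_2_KO than in Dgcr8_KO (log2 1.55 ± 0.24, edgeR adjusted p = 0.0035, 146 and 143 CPM against 50.3 and 48.5), in every setting tried. Cbs, which makes cystathionine on the way to cysteine, was lower (-1.33 ± 0.25, adjusted p = 0.00691), a call lost without any 1 of the 4 libraries compared (-1.22 to -1.44, adjusted p 0.0513 to 0.0674).

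**Figure D5:**
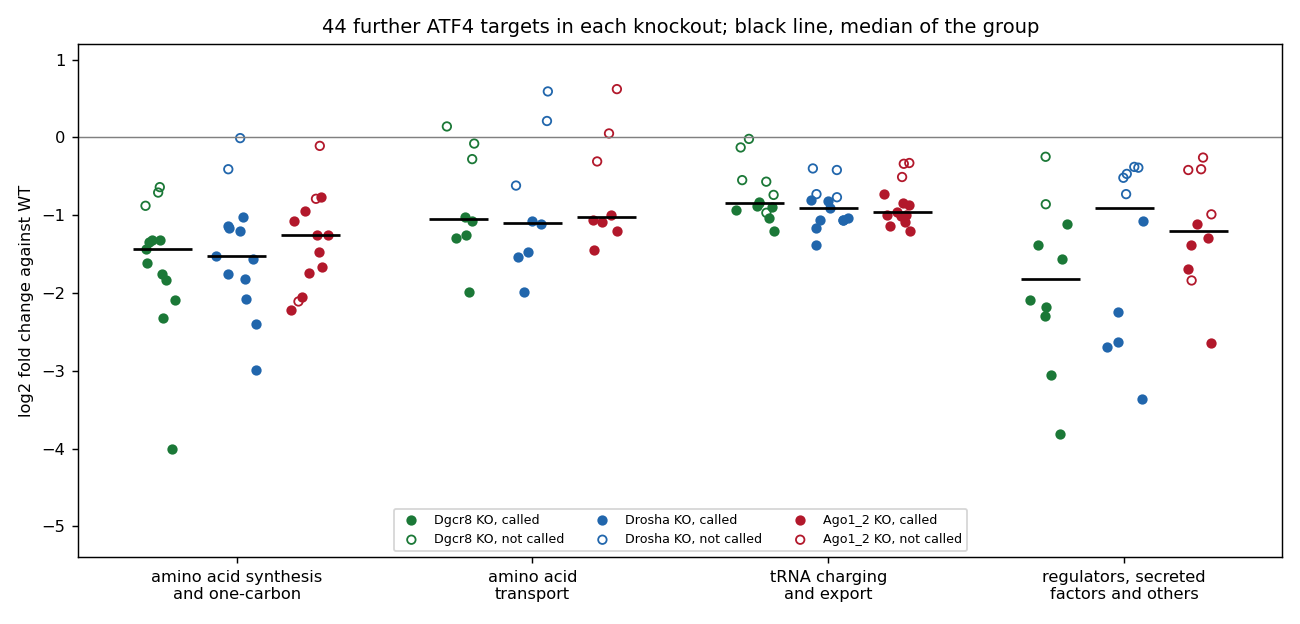
Log2 fold change against WT of 44 further ATF4 targets in the 3 knockouts, grouped by function; filled points were called, open points were not, and black lines are group medians. The medians of the synthesis genes lie at -1.44, -1.52 and -1.26, and every filled point is below 0.

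Upstream of ATF4, 15 genes were tested, for the eIF2 kinases, the GCN2 cofactor Gcn1 and inhibitor Impact, eIF2 itself, its exchange factor, and the phosphatase subunits Ppp1r15a (also among the 44) and Ppp1r15b. In Dgcr8_KO and Drosha_KO 2 were called higher and 0 lower than WT (13.3% higher, beside 2.45% and 6.54% of all genes). In Ago1_2_KO 1 was called higher and 1 lower (6.67% each, beside 10.2% and 7.38% of all genes). Eif2ak3, which encodes the endoplasmic reticulum kinase PERK, was called higher in all 3 (22.8 and 18.1 CPM in WT, 36.1 and 39.0 in Dgcr8_KO, 35.3 and 32.4 in Drosha_KO, and 38.2 and 40 in Ago1_2_KO). Impact, whose protein inhibits the amino acid sensor GCN2, had 131 and 135 CPM in WT, 372 and 305 in Dgcr8_KO and 254 and 206 in Drosha_KO, where it was called higher, and 200 and 151 in Ago1_2_KO, where it was not. Eif2s1, for a part of eIF2, was the gene called lower in Ago1_2_KO (log2 -0.61 ± 0.18). Of 17 alternative settings, the Eif2ak3 call was lost in 6 in Dgcr8_KO, 10 in Drosha_KO and 2 in Ago1_2_KO. That of Impact was lost in 2 in Dgcr8_KO and 7 in Drosha_KO. The kinase genes Eif2ak4 and Eif2ak2 were not called against WT. Against Dgcr8_KO, Ago1_2_KO had 3 of the 15 called lower (20%) and 1 higher (6.67%), beside 5.54% and 11.6% of all genes. The lower ones were Impact (log2 -0.95 ± 0.21, edgeR adjusted p = 0.0157), Eif2s1 (-0.68 ± 0.18, adjusted p = 0.0325) and Eif2b5 (-0.98 ± 0.30, adjusted p = 0.0498). Eif2ak2, for the double-stranded RNA sensor PKR, was higher in Drosha_KO (log2 1.08 ± 0.25, edgeR adjusted p = 0.0217) and Ago1_2_KO (1.22 ± 0.25, adjusted p = 0.0113) than in Dgcr8_KO. These 2 calls were lost without either Dgcr8_KO library (log2 1.01 to 1.3, adjusted p 0.0862 to 0.164). They were also lost without Drosha_KO 1 for the former (adjusted p = 0.0768), and without Ago1_2_KO 1 or 2 for the latter (adjusted p = 0.0768 and 0.0541).

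The other arms of the response to misfolded protein, ATF6 and XBP1, were represented by 21 genes. Of these 1, 1 and 4 were called higher than WT (4.76%, 4.76% and 19%, beside 2.45%, 6.54% and 10.2% of all genes). In each knockout 1 was called lower (4.76%), a share near or below the 4.48%, 4.83% and 7.38% of all genes. Herpud1, which ATF4 also induces, was the gene called lower each time (-1.12, -1.08 and -1.38), and Dnajb9, a chaperone, was called higher each time (1.11, 1.06 and 1.12). Of 6 further genes listed as CHOP targets, 1 was called higher in each knockout, and 1, 0 and 1 lower, too few to set against the shares of all genes. The gene called higher was again Dnajb9, and the gene called lower was Bbc3, which encodes the death protein PUMA (-1.22 in Dgcr8_KO and -1.17 in Ago1_2_KO). With the GC offset the calls in Dgcr8_KO were lost for Bbc3 (-0.44), Dnajb9 (0.73) and Herpud1 (-0.93). The 15 mTORC1 regulators other than Ddit4 and Sesn2 gave 1 call against WT, Tsc1 in Drosha_KO (0.88). This is 6.67% called higher, near the 6.54% of all genes, and the call was lost in 8 of 17 alternative settings.

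Relatives of the 10 genes by family did not all share their levels. Of 20 tested, 0 were called higher and 2 lower in Dgcr8_KO, 4 and 1 in Drosha_KO, and 5 and 1 in Ago1_2_KO. Those called higher were 0%, 20% and 25%, beside 2.45%, 6.54% and 10.2% of all genes, and those called lower 10%, 5% and 5%, beside 4.48%, 4.83% and 7.38%. Inhbb, another activin subunit gene, had 10 and 6.87 CPM in WT, 4.01 and 3.49 in Dgcr8_KO, 97.1 and 38.6 in Drosha_KO, and 75.6 and 86.2 in Ago1_2_KO, opposite to Inhbe in the last 2. Against Dgcr8_KO it was higher in Drosha_KO by 4.17 ± 0.44 and in Ago1_2_KO by 4.42 ± 0.44 on the log2 scale (edgeR adjusted p = 0.001 and 0.000567). Trib1, of the pseudokinase family of Trib3, had 8.24 and 9.43 CPM in WT, 9.50 and 8.32 in Dgcr8_KO, 31.5 and 16.4 in Drosha_KO, and 23.2 and 21.7 in Ago1_2_KO. Slc7a5, a transporter gene in the family of Slc7a11 and also listed as an ATF4 target, was called lower in all 3 (-1.03, -1.47 and -1.09), but not in Dgcr8_KO with the GC offset (-0.65). Slc7a1 (0.14, -0.62 and -0.31) and Slc7a3 (-0.28, 0.21 and 0.05), of the same family and target list, were called in none.

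The profile of the 10 genes over the 8 libraries, taken as the median of their centred log2 CPM, was 1.90 and 1.72 in WT, -0.88 and -1.07 in Dgcr8_KO, -1.11 and -0.28 in Drosha_KO, and -0.05 and 0.06 in Ago1_2_KO. Trib3 was nearest to it, with a root mean square difference of 0.19 (log2), and then Ddit4 (0.30), Ddit3 (0.59) and Chac1 (0.60), while Sesn2 was the farthest (1.04). Of the 11041 genes with a mean of 5 CPM or more, the 8 nearest that are not in the list were Pck2 (0.28), Col26a1 (0.31), Mid1ip1 (0.33), Stc2 (0.35), Tsc22d3 (0.39), Extl1 (0.39), Tmem47 (0.40) and Slc6a9 (0.42). Pck2, the mitochondrial form of phosphoenolpyruvate carboxykinase, had 178 and 168 CPM in WT, 28.2 and 24.4 in Dgcr8_KO, 39.7 and 60.6 in Drosha_KO, and 59.3 and 63.4 in Ago1_2_KO. The libraries are the same ones for all genes, so the likeness describes these 8 libraries.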

How the data were processed

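Counts per gene for the 8 libraries were taken from 1 deposited table. Per the labels' protocols the libraries came from a TruSeq kit with a reverse-stranded protocol, and per the submitters' processing notes reads were aligned with STAR 2.4.2a to mm10 (GRCm38). Neither the counting tool nor its strand setting nor the release of the annotation used is given in the sources used here. All count columns were used (0 left out).

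Identifiers were matched without version to symbols and GENCODE M21 (47224 of 47643 matched). Genes were filtered by filterByExpr (16388 left), scaled with TMM, and fitted with 1 mean per genotype over all 8 libraries, with robust estimates, in edgeR 4.0.16 (R 4.3.3, limma 3.58.1). The quasi-likelihood test was adjusted by Benjamini-Hochberg over all genes tested, and a call is an adjusted p under 0.05. CPM use TMM-scaled library sizes, and SE come from the same fit. The ratio of 2 libraries was taken after adding 0.1 CPM for its log2 value. Where a group had no counts, the ratio uses 3 counts for the whole group, which covers counting error in that group only.

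The 10 genes and all lists were chosen with earlier results of these data known. Named beside the 10 were the targeted genes, up to 4 called genes per list and comparison by smallest p, called relatives, and the 8 genes of most similar profile. Slc3a2, Slc7a1, Slc7a3, Slc38a2, Gcn1, Ppp1r15b, Nupr1, Cebpg, Ppp1r15a, Eif2ak4, Mars and the neighbours of Inhbe were named after their values were seen.

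The alternatives changed the scaling (library size alone, or size factors of DESeq2), the test (limma-voom, or DESeq2 1.42.0) and the filter (none, or 1 CPM in 2 libraries). Others fitted only the groups compared, added a replicate block or a GC offset (lowess span 0.3), or left out each library in turn. Where 1 library is left, it is assumed to vary like the other groups. The fit was checked on simulated counts of 15945 genes for Ago1_2_KO against Drosha_KO. There it found 27% of the 2-fold and 97% of the 4-fold changes and made 8 false calls. The simulation gave every gene the same dispersion and changed no gene of very low counts, so these figures need not hold for the real libraries. Computations outside R used Python 3.11.15 with pandas 2.3.3 and matplotlib 3.10.9.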

Additional observations from a re-analysis of the deposited data

How the results depend on the processing

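Depth limits Inhbe and Slc7a11 most, which had 2 to 14 counts per library in Dgcr8_KO and Drosha_KO. With 2 libraries a genotype, counts of calls move with each library, and the cause of the shifts below was not tested beyond what each setting changes.

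Between Drosha_KO and Dgcr8_KO, 0 of the 10 genes were called, but 2 without a low-count filter, 1 with the replicate block and 1 with only the groups compared. Between Ago1_2_KO and Dgcr8_KO the 3 calls became 6 without the filter, 6 with only the groups compared, 5 with DESeq2, 4 with the replicate block and 0 with the GC offset. The 1 call between Ago1_2_KO and Drosha_KO became 0 with only the groups compared. For the 44 further ATF4 targets, the 30 calls in Drosha_KO against WT became 12 with only the groups compared. Their 4 calls between Drosha_KO and Dgcr8_KO became 9 without the filter, 9 with the replicate block and 8 with DESeq2. Those between Ago1_2_KO and Dgcr8_KO, also 4, became 9 without the filter, 17 with only the groups compared and 8 with DESeq2. Between Ago1_2_KO and Drosha_KO 0 became 3 without the filter and 1 with DESeq2.

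Leaving out each library in turn gave 3 to 8 calls of the 10 in Dgcr8_KO against WT, 5 to 9 in Drosha_KO and 3 to 7 in Ago1_2_KO. It gave 0 to 2 between Drosha_KO and Dgcr8_KO, 0 to 5 between Ago1_2_KO and Dgcr8_KO, and 0 to 1 between Ago1_2_KO and Drosha_KO. For the further targets the ranges were 1 to 35, 15 to 30 and 8 to 32 against WT, and 0 to 8, 1 to 7 and 0 to 0 among the knockouts.

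The 7 calls in Dgcr8_KO against WT became 9 with the replicate block, with DESeq2 and without the filter, where Atf3 and Atf4 were added. Calls against WT of Eif2ak3, Impact, Herpud1, Dnajb9, Bbc3, Tsc1, Slc7a5, Hmox1, Phgdh, Slc6a9, Slc3a2, Nupr1, Inhbb, Trib1 and Ndrg1 were each lost in 0 to 10 of 17 alternatives, most often for Eif2ak3 in Drosha_KO.

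Signs reversed only for values that had not been called. With the GC offset, Sesn2 became 0.25 in Dgcr8_KO against WT. Between Drosha_KO and Dgcr8_KO this offset gave -0.09 for Chac1, 0.13 for Slc7a11, -0.08 for Trib3 and -0.43 for Sesn2, and between Ago1_2_KO and Dgcr8_KO -0.38 for Sesn2. Other reversals came from leaving out 1 library, which gave the following ranges of log2 values. In Drosha_KO against WT they were -0.78 to 0.15 for Atf4 and -0.33 to 0.01 for Sesn2. In Ago1_2_KO against WT they were -0.59 to 0.34 for Atf4, -0.62 to 0.28 for Atf5 and -0.28 to 0.04 for Sesn2. The Atf4 and Atf5 values above 0 are those without WT 2. Between Drosha_KO and Dgcr8_KO they were -0.32 to 0.00 for Ddit4, -0.50 to 0.11 for Slc7a11 (highest without Dgcr8_KO 1), -0.40 to 0.91 for Chac1, -0.02 to 2.18 for Inhbe, -0.07 to 1.35 for Ddit3 (lowest without Drosha_KO 2) and -0.08 to 0.27 for Sesn2. Between Ago1_2_KO and Dgcr8_KO they were -0.05 to 0.28 for Ddit3 and -0.03 to 0.30 for Sesn2. Between Ago1_2_KO and Drosha_KO they were -1.24 to 0.20 for Ddit3 (highest without Drosha_KO 2), -0.37 to 1.65 for Atf3 (lowest without Drosha_KO 1), -0.01 to 0.38 for Atf4 and -0.13 to 0.22 for Sesn2.

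The replicate numbers are shared by the titles, but the labels name no common batch. The deviations of same-numbered libraries correlated between genotypes at 0.0963 to 0.245 across 16388 genes, so the block above is an alternative and not a pairing.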

Other observations

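Ddit3 and Inhbe lie on the same stretch of chromosome 10 (GRCm38), the lowest coordinate of Inhbe being 52569 bases above the highest of Ddit3. Of the genes between them, Mars was called lower than WT in all 3 knockouts (-0.83, -0.82 and -0.85), and Arhgap9 in Dgcr8_KO (-1.8), a call lost in 8 of 17 alternatives. Arhgap9 (chr10:127321964-127329943) had 9.59 and 7.59 CPM in WT, 1.95 and 2.99 in Dgcr8_KO, 5.96 and 14.1 in Drosha_KO, and 8.48 and 7.56 in Ago1_2_KO. It was higher in Drosha_KO and Ago1_2_KO than in Dgcr8_KO (log2 2.04 ± 0.44 and 1.71 ± 0.44, edgeR adjusted p = 0.0165 and 0.0286). Neither call held without a Dgcr8_KO library (1.42 to 2.37, adjusted p 0.0827 to 0.217), the former was also lost without Drosha_KO 2 (1.28, adjusted p = 0.0654), and the latter without either Ago1_2_KO library (1.62 and 1.79, adjusted p = 0.129 and 0.109). Gli1, a transcription factor of the hedgehog pathway, was not called in any comparison. Inhbc (chr10:127356322-127370431) is another activin subunit gene, whose lowest coordinate is 1911 bases above the highest of Inhbe. Both genes are on the - strand, so Inhbc lies upstream of Inhbe. Inhbc had 0 counts in the 4 libraries of WT and Dgcr8_KO, 16 and 4 counts in Drosha_KO, and 13 and 9 in Ago1_2_KO. With a floor of 3 counts set for the WT group, the observed level was 5.89-fold higher in Drosha_KO and 7.31-fold higher in Ago1_2_KO. These are not lower bounds, since counting error in the few knockout counts is left out. Inhbc was called higher than WT in Ago1_2_KO but not in Drosha_KO. Inhbe was lowest in the same Dgcr8_KO group, but its highest level was in WT, where Inhbc had no counts.

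Genes of other stress programmes were counted in the same way. Of 15 NRF2 targets, which answer oxidative stress, 0, 2 and 0 were called higher than WT and 1 was called lower in each knockout. Over all genes 2.45%, 6.54% and 10.2% were called higher and 4.48%, 4.83% and 7.38% lower, so that 1 of 15 (6.67%) is near the background. The gene called lower was Hmox1, heme oxygenase, with 75.2 and 71.1 CPM in WT, 36.9 and 45.1 in Dgcr8_KO, 32.6 and 32.2 in Drosha_KO, and 28.1 and 28.9 in Ago1_2_KO; its call in Dgcr8_KO was lost with the GC offset (-0.63). Of 16 p53 targets 1, 0 and 1 were called lower (6.25% where 1 was) and 0 higher, and the gene was Bbc3, already counted among the CHOP targets. Of 13 hypoxia (HIF) targets, which share the inducible gene Vegfa with the ATF4 response, 4 were called lower (30.8%) and 1 higher (7.69%) in Dgcr8_KO. In Drosha_KO 2 were called higher (15.4%), in Ago1_2_KO 4 (30.8%), and none lower in either. Ndrg1, a hypoxia-induced gene, had 20.3 and 41.1 CPM in WT, 10.1 and 12.3 in Dgcr8_KO, 89.3 and 77.3 in Drosha_KO, and 130 and 124 in Ago1_2_KO. It was higher in Drosha_KO and Ago1_2_KO than in Dgcr8_KO by 2.90 and 3.51 on the log2 scale (edgeR adjusted p = 0.00112 and 0.000456), in every setting tried.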
